A study of Mus musculus with 13 samples.

Results

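Sat4C was used to follow which parts of the mouse genome lie near chromocenters, the nuclear clusters of pericentromeric satellite repeats, and the data described here are the calls for neural precursor cells (NPCs) and for the astrocytes (ACs) derived from them. Both come from IB10 embryonic stem cells (ESCs) of strain 129/Ola. The NPCs are a line grown from these ESCs in culture, and the ACs were made from the same NPCs in vitro, so both are 1 lineage of 1 genotype and the values say nothing of other lines or of astrocytes in the brain. Each had 2 replicate libraries from crosslinked cells, which make up 4 of the 13 samples of the series, and the rest are 3 ESC replicates and 6 samples of thymus from 3 adult male C57BL/6 mice, each sequenced on a pair of instruments. Each fragment end, the stretch beside an MfeI site that can be read after ligation to a satellite repeat, carries 1 consensus call per cell type, PAD (pericentromere-associated domain) or non-PAD. The calls of NPCs and ACs placed each end in 1 of 4 classes, and consecutive ends of the same class on a chromosome were merged, with borders midway between ends. Of 399232 fragment ends on 20 chromosomes, the 374542 ends on the 19 autosomes were used, which span 2414 Mb of the mm9 genome with a median spacing of 2892 bp. In the direction of differentiation, sequence that was PAD in NPCs and non-PAD in ACs is called lost (92851 ends), and sequence that was non-PAD in NPCs and PAD in ACs is called gained (32170 ends). A further 170623 ends were PAD in both cell types and 78898 were non-PAD in both.

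Mouse chromosomes carry their centromere at one end, and in interphase the satellite repeats around the centromeres of several chromosomes gather into chromocenters, which are dense in heterochromatin. Regions along the arms that contact chromocenters form long domains, and in differentiated cells such domains are known to be poor in genes and in active chromatin. Neural precursors divide and give rise to neurons and glia, and astrocytes are glia that take up glutamate, buffer potassium and metabolize nutrients for neurons.

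The deposited table holds the calls after replicates were merged, with no read counts. The depth behind a call is therefore unknown, no SD between cultures could be given, and none of the differences below could be tested. The NPC column stood apart from the other columns in coverage and in sequence content, as described below, and every lost or gained value rests on it. It is in doubt whether this column is the set of NPC calls that the study itself used, because the study's account of NPC coverage does not match it. The lost and gained classes therefore hold only for the calls as deposited, and cannot be read as changes between the cell types until that is settled. Autosomes are parts of the same libraries and not replicates, and counts of autosomes are given as descriptions. The calls hold no expression, so the identity of the cells could not be checked against marker genes.

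The sequences below show what a call is attached to. They are the 60 bases of the plus strand of mm9 next to the MfeI site, from the fragment ends at the borders of the largest lost and the largest gained domain and from the ends nearest the start sites of the astrocyte genes *Gfap* and *Gja1*. Capitals mark the MfeI site (CAATTG) and any NlaIII site (CATG), the second enzyme of the assay. Where the end next to a border could not be read as a single MfeI to NlaIII stretch, the next end that could be read is shown, at most 3 ends further.
Last end before the largest lost domain, chr2:30676496-30676555, non-PAD in both: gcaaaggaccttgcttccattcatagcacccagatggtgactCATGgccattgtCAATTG
First end of the largest lost domain, chr2:30676550-30676609, PAD in NPCs and non-PAD in ACs: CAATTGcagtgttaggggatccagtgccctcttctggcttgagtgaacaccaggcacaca
Last end of the largest lost domain, chr2:36317467-36317526, PAD in NPCs and non-PAD in ACs: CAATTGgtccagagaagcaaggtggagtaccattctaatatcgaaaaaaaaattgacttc
First end after the largest lost domain, chr2:36382315-36382374, PAD in both: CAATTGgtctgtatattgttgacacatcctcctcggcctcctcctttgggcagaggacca
Last end before the largest gained domain, chr7:7092487-7092546, PAD in both: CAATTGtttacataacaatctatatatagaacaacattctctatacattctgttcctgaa
First end of the largest gained domain, chr7:7100599-7100658, non-PAD in NPCs and PAD in ACs: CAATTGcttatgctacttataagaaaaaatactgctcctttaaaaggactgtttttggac
Last end of the largest gained domain, chr7:10737155-10737214, non-PAD in NPCs and PAD in ACs: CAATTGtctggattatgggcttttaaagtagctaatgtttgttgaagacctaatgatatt
First end after the largest gained domain, chr7:10750453-10750512, PAD in both: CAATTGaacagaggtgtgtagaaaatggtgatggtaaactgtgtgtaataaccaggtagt
End nearest the *Gfap* start site, chr11:102761630-102761689, PAD in NPCs and non-PAD in ACs: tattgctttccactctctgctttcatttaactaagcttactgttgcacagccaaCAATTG
End nearest the *Gja1* start site, chr10:56089001-56089060, non-PAD in NPCs and PAD in ACs: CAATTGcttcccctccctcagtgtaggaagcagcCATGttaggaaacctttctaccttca

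The left border of the largest lost domain fell at a single MfeI site, in an intron of *Mettl11a*, an N-terminal methyltransferase gene, with the end to its left non-PAD and the end to its right PAD in NPCs. The ends shown at its right border lay in intergenic sequence, nearest the start sites of the olfactory receptor genes *Olfr340* and *Olfr342*. The ends shown at the left border of the largest gained domain lay in intergenic sequence beyond *Zfp773*. At its right border, the last end shown inside the domain was intergenic. The first end after the domain lay in an intron of the pheromone receptor gene *Vmn2r52*. The *Gfap* end lay 3.18 kb upstream of the start site of the longest transcript, in an intron of another annotated *Gfap* transcript, and the *Gja1* end lay in intergenic sequence 8.05 kb from that gene's start.

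PADs covered far more of the autosomes in NPCs than in ACs. They took up 69.3% of the called autosomal sequence (1673 Mb, 1058 PADs) in NPCs and 50.1% (1209 Mb, 967 PADs) in ACs, a difference of -19.2 percentage points. For comparison, the ESC calls covered 52.8% and the thymus calls 48.1%, so the NPC column stood apart from the other 3 in coverage, which is the mismatch with the study named above. The median PAD measured 828 kb in NPCs and 518 kb in ACs, and the median non-PAD 318 kb in NPCs and 577 kb in ACs. NPCs and ACs had the same call over 64.7% of the sequence, with 42.1% PAD in both (1015 Mb) and 22.7% non-PAD in both (547 Mb). Lost sequence made up 27.2% (658 Mb) and gained sequence 8.03% (194 Mb), a ratio of 3.39. Seen from the NPC calls, 39.3% of PAD sequence was lost and 26.2% of non-PAD sequence was gained. Seen from the AC calls, 84.0% of PAD sequence was also PAD in NPCs, while 54.6% of non-PAD sequence was PAD in NPCs.

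The columns were checked for a shift against each other, since the NPC calls stood apart. Moving the NPC calls along the fragment ends by up to 2000 ends in either direction gave the highest share of equal calls with ACs (66.6% of ends) and with ESCs (68.3%) at an offset of 0. At the largest offsets the share with ACs was 52.7% and 49.8%. Against the thymus calls, the NPC calls gave 53.3% at the best offset of 1100 ends and 52.9% at 0. The AC calls moved against the ESC and thymus calls peaked at offsets of -1 and 1 ends, at 78.4% and 75.9%.

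**Figure D1:**
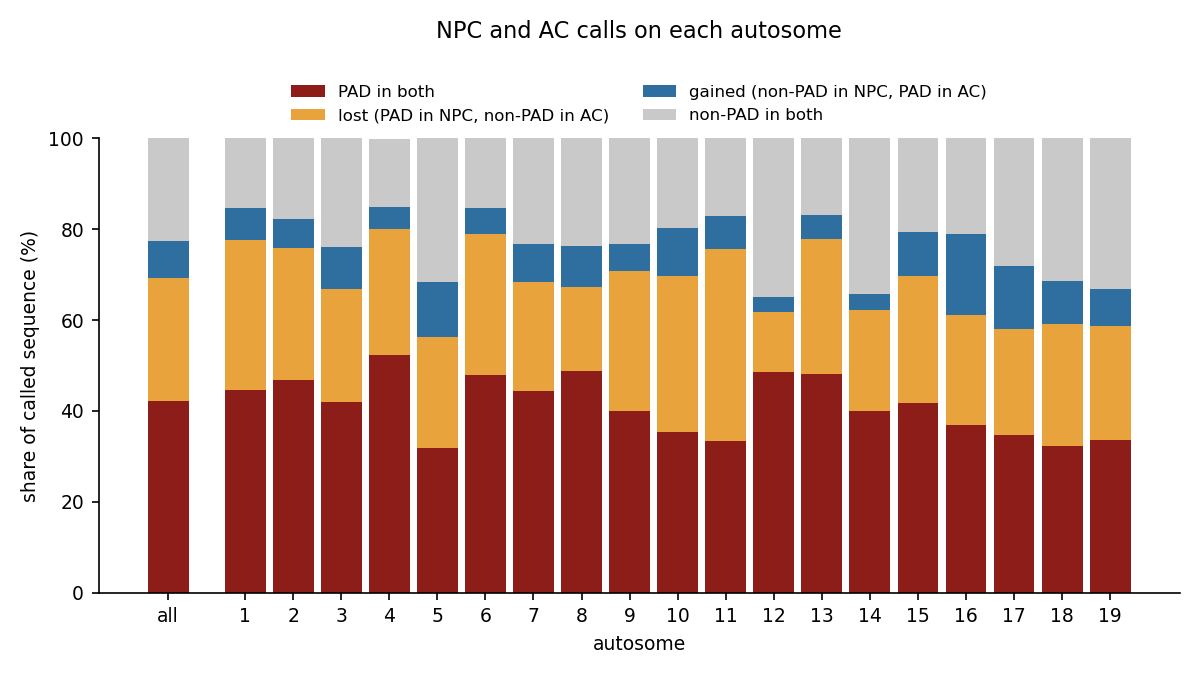
Share of the called sequence (%) of all autosomes and of each autosome in the 4 classes of NPC and AC calls, as stacked bars with no error because each cell type has 1 consensus call. Lost sequence is the larger of the changed classes on every autosome, from 13.1% on Chromosome 12 to 42.2% on Chromosome 11, and gained sequence is largest on Chromosome 16 at 17.8%.

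All autosomes had less PAD sequence in ACs than in NPCs, but by very different amounts. The difference ran from -6.43 percentage points on Chromosome 16 to -35.0 points on Chromosome 11, with a median of -18.3 points. NPC coverage lay between 56.2% (Chromosome 5) and 80.2% (Chromosome 4), and AC coverage between 40.6% (Chromosome 11) and 57.8% (Chromosome 8). Lost sequence exceeded gained sequence on 19 of 19 autosomes, as the stacked bars by autosome show. The ratio was smallest on Chromosome 16 (1.36), where 45.8% of the NPC non-PAD sequence became PAD in ACs. It was largest on Chromosome 14 (6.57), where 8.98% of the NPC non-PAD sequence did so. On Chromosome 11, 55.8% of NPC PAD sequence was lost and the same call was found over 50.6% of the sequence, the lowest share of any autosome.

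Chromosome 12 stood at the other extreme. NPCs and ACs had the same call over 83.4% of it, against a median of 63.8% over autosomes, and it held 11 PADs in NPCs and 17 in ACs, the fewest on any autosome in either cell type. There were 17 lost and 8 gained domains. An NPC PAD of 15.1 Mb (chr12:36263371-51333447) was PAD throughout in ACs, and a PAD of 13.3 Mb at the centromeric end (chr12:3039582-16370700) kept 97.1%. In blocks of 10 Mb, 6 of the 12 blocks of this chromosome had the same call over more than 95% of their sequence, and 12 of 247 blocks did so on all autosomes together. The 2 blocks of this chromosome with the same call over less than 50% lay at its far end, and the one from 100 to 110 Mb was lost over 79.6% of its sequence. The phi coefficient over the ends of Chromosome 12, a correlation of PAD and non-PAD calls, was 0.70 between NPCs and ACs, 0.32 between ESCs and NPCs and 0.54 between ESCs and ACs. On the other 18 autosomes, phi between NPCs and ACs ran from 0.12 on Chromosome 11 to 0.54 on Chromosome 14.

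**Figure D2:**
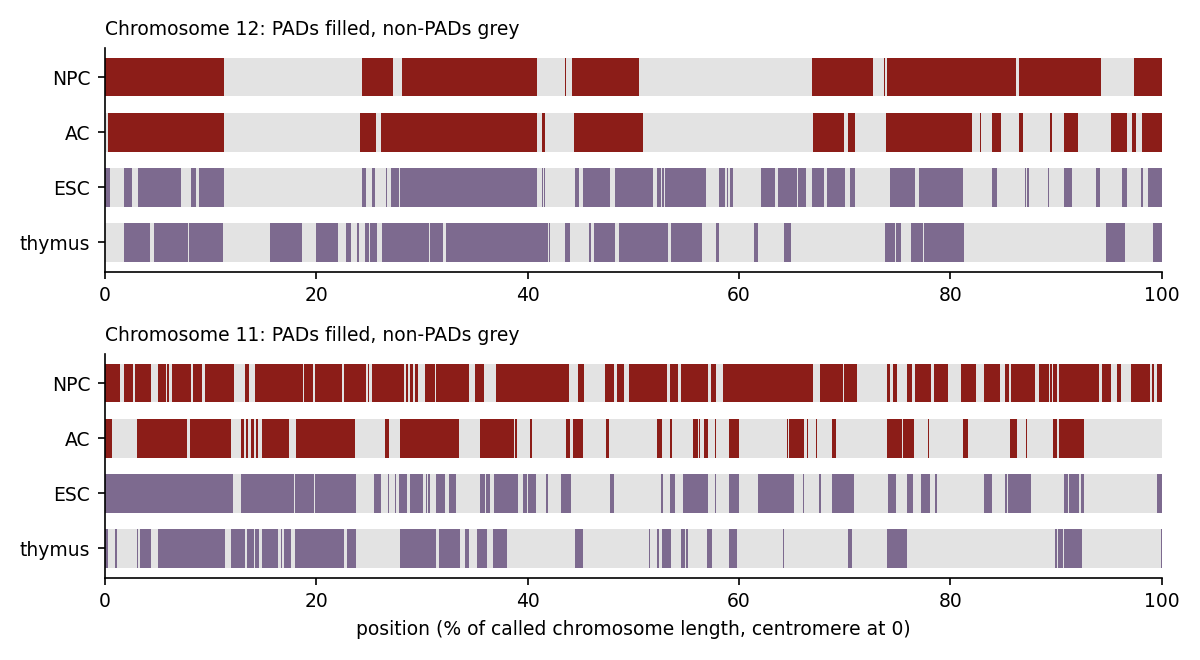
PAD calls along Chromosomes 12 and 11 in NPCs, ACs, ESCs and thymus, with position as % of the called chromosome length from the centromere, PADs filled and non-PADs grey. On Chromosome 12 (same call in NPCs and ACs over 83.4%) the NPC and AC PADs nearly coincide over most of the length, while on Chromosome 11 (same call over 50.6%) PADs cover 75.5% in NPCs and 40.6% in ACs.

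Over all autosomes, 56 of 247 blocks of 10 Mb had the same call over less than 50% of their sequence and 41 blocks were lost over more than 50%, but 0 blocks were gained over more than 50%. The block with the most lost sequence lay on Chromosome 15 from 80 to 90 Mb (90.1% lost). The block with the most gained sequence lay on Chromosome 5 from 10 to 20 Mb (46.9% gained).

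Lost domains were more numerous and longer than gained ones. There were 1211 lost domains with a median of 285 kb (quartiles 105 and 695 kb) and 776 gained domains with a median of 148 kb (quartiles 56.6 and 311 kb). Of the lost domains 199 reached 1 Mb, and these held 55.3% of all lost sequence. Of the gained domains 24 did, with 20.2% of the gained sequence. Domains of fewer than 5 ends numbered 95 among the lost and 96 among the gained. A single fragment end made up 28 lost and 27 gained domains.

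Lost domains lay most often at the edge of a PAD that both cell types had. Of the 1211 lost domains, 590 (48.7%) had a shared PAD on one side and a shared non-PAD on the other, which is a PAD that was shorter in ACs. A further 363 (30.0%) lay between shared PADs, as a break inside an NPC PAD, and 247 (20.4%) lay between shared non-PADs, as a whole NPC PAD that was absent in ACs. Gained domains showed another mix, with 337 (43.4%) at an edge, 319 (41.1%) filling a gap between shared PADs and 111 (14.3%) standing alone in non-PAD sequence. A lost and a gained domain were direct neighbours in 3 cases.

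Of 1058 NPC PADs, 304 were PAD throughout in ACs (median 504 kb), 250 held no AC PAD sequence (median 404 kb), and 504 were partly PAD, with a median of 1607 kb. In all, 208 contained 2 or more separate stretches of AC PAD, and 19 contained 5 or more. The largest NPC PAD, 18.8 Mb on Chromosome 4 (chr4:92803580-111619471), held 7 stretches of AC PAD that together made up 79.2% of it. An NPC PAD of 11.5 Mb on Chromosome 10 (chr10:70223086-81746634) had 32.8% PAD in ACs, in 2 stretches. The doubt about the NPC column extends to this stretch, since the NPC signal that the study displays there does not look like a single PAD. That signal is a running-window profile, which the study says need not match its calls exactly. The display therefore cannot settle the doubt. In the reverse view, 483 of 967 AC PADs lay wholly within NPC PAD sequence and 115 AC PADs contained none, with a median of 194 kb.

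Borders seldom fell at the same place. Of 1908 AC borders on autosomes, 21 (1.10%) lay at exactly the same fragment end as an NPC border, 14.7% lay within 50 kb and 36.9% within 200 kb. The median distance from an AC border to the nearest NPC border was 336 kb, and from an NPC border to the nearest AC border 440 kb. The AC borders lay nearer to ESC borders, with a median of 172 kb and 54.6% within 200 kb. Denser borders shorten such distances, and the ESC calls have the most PADs (1246). On Chromosome 12 the median distance from the 33 AC borders to the nearest of the 20 NPC borders was 1309 kb, and in the reverse direction 325 kb.

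**Figure D3:**
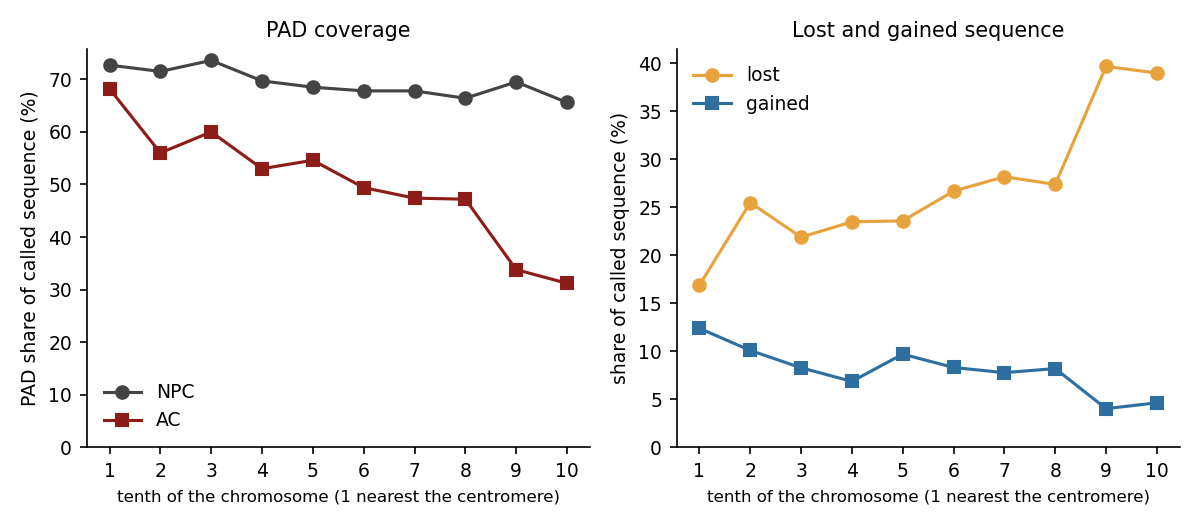
PAD coverage in NPCs and ACs (left) and the lost and gained shares (right), in % of the called sequence of 10 equal segments of each autosome, numbered from the centromere. AC coverage goes from 68.2% in the first segment to 31.2% in the last while NPC coverage stays between 65.6% and 73.6%, and the lost share is highest in the last 2 segments (39.7% and 39.0%).

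The lost share was larger far from the centromere than near it. Each autosome was cut into 10 equal segments. In the segment nearest the centromere, 72.7% of the sequence was PAD in NPCs and 68.2% in ACs. In the most distal segment, NPC coverage was still 65.6% but AC coverage 31.2%. The lost share went from 16.9% in the first segment to 39.0% in the last, and the gained share from 12.4% to 4.64%. The lost share was higher in the last segment than in the first on 15 of 19 autosomes, and the gained share on 5 of 19. The plot of coverage by position shows a nearly level NPC line above a falling AC line.

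Lost sequence was rich in genes and GC, and gained sequence was poor in both. These features were not used to define the classes. GC content was 44.7% in lost and 39.0% in gained sequence, and lost sequence had the higher value on 19 of 19 autosomes. CpG dinucleotides numbered 10.7 per kb in lost and 6.27 per kb in gained sequence. Lost sequence held 12.7 protein-coding genes per Mb and gained sequence 5.06, again with lost higher on 19 of 19 autosomes. Gene bodies covered 49.6% of lost and 25.3% of gained sequence.

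Lost sequence is by definition part of AC non-PADs and gained sequence part of AC PADs, so the classes were also compared within each AC call. Within AC non-PADs, the part that was PAD in NPCs (lost) had more GC than the part that was non-PAD in both (44.7% against 43.0%), on 19 of 19 autosomes, and more genes per Mb (12.7 against 10.2), on 15 of 19. Within AC PADs, the part that was PAD in both also had more GC than the gained part (40.1% against 39.0%), on 16 of 19 autosomes, and more genes per Mb (6.39 against 5.06), on 16 of 19. By cell type, PADs had less GC than non-PADs in ACs (39.9% against 43.9%), in ESCs (40.7% against 43.3%) and in thymus (39.3% against 44.4%), on 19 of 19 autosomes each. In NPCs the values were 41.9% in PADs and 42.0% in non-PADs, with the PADs lower on 13 of 19 autosomes. Gene density was 8.87 genes per Mb in NPC PADs and 8.85 in NPC non-PADs, but 6.17 and 11.6 in AC PADs and non-PADs.

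**Figure D4:**
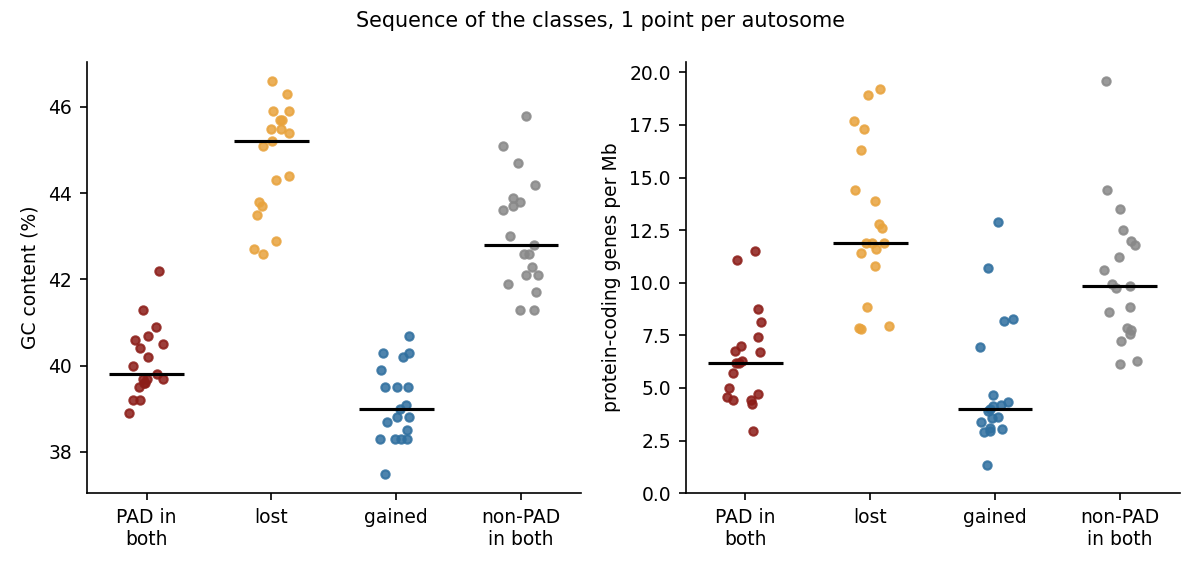
GC content (%, left, axis not from 0) and protein-coding genes per Mb (right) of the 4 classes, with 1 point per autosome and the median as a line. Lost sequence has the highest median GC content (45.2%) and gained sequence the lowest (39.0%), and the points of these classes do not overlap in GC.

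Fragment ends were sparser in lost than in gained sequence, at 141 and 166 ends per Mb, and lost sequence had fewer on 17 of 19 autosomes. Sequence that was PAD in both had 168 and sequence that was non-PAD in both 144 ends per Mb. The part of this spacing in the calls was not tested.

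The calls of ESCs and thymus, which were not used to define the classes, differed between lost and gained sequence on 19 of 19 autosomes, with more of the gained sequence PAD in each. In thymus 84.0% of gained sequence was PAD, against 13.6% of lost sequence. In ESCs the shares were 63.6% and 32.9%. Gained sequence was thus mostly PAD in other cell types, and 54.4% of it was PAD in both ESCs and thymus. Most lost sequence (59.4%, 391 Mb) was non-PAD in ESCs, ACs and thymus, which means that it was PAD in NPCs alone. Another 27.0% (177 Mb) was PAD in ESCs and NPCs and non-PAD in ACs and thymus. Sequence that was non-PAD in NPCs alone among the 4 cell types made up 105 Mb, the part of gained sequence shared by ACs, ESCs and thymus.

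ESCs and thymus related to the NPC calls in opposite ways once the AC call was held fixed. Within AC PADs, 84.5% of the sequence that was PAD in NPCs was PAD in ESCs, against 63.6% of the sequence that was non-PAD in NPCs, and the first share was higher on 19 of 19 autosomes. Within AC non-PADs the ESC shares were 32.9% and 14.0%, with the first higher on 18 of 19. In thymus the order was the reverse. The thymus PAD share was 72.1% in shared PADs and 84.0% in gained sequence, with shared PADs higher on 3 of 19 autosomes. It was 13.6% in lost sequence and 32.1% in sequence that was non-PAD in both, with lost sequence higher on 0 of 19. Taken without regard to ACs, NPCs and thymus had the same call over 50.7% of the sequence, ACs and thymus over 76.0%, and ACs and ESCs over 78.4%.

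The largest lost domains held between 31 and 151 protein-coding genes each. The largest ran over 5.66 Mb of Chromosome 2 (chr2:30676544-36331908), with 758 fragment ends and 94 protein-coding genes, of which the longest was *Ralgps1*, a guanine nucleotide exchange factor gene. It was non-PAD throughout in thymus and PAD over 7.15% in ESCs. The second, 5.48 Mb, lay close to it on the same chromosome (chr2:24964141-30440596) and held 151 genes, with *Med27*, a subunit of the Mediator complex, as the longest. *Notch1* and the glutamate receptor gene *Grin1* lay in this domain. The third, 5.25 Mb on Chromosome 11 (chr11:74323890-79574078), held 108 genes, among them the slingshot phosphatase gene *Ssh2* as the longest and *Aldoc*, the brain form of aldolase that astrocytes express. In ESCs 58.9% of that domain was PAD. The other 7 of the 10 largest measured 3.90 to 4.16 Mb. Their longest genes were *Igsf21*, *Cacna1e* (a voltage-gated calcium channel), *Spock1*, *Srgap2* (a regulator of neuronal migration), *Cdh23* (a cadherin of hair cells), *Pcbp3* and *Fstl4*. All 10 had between 110 and 149 ends per Mb.

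The largest gained domains were of another kind. The top 3 contained 46, 39 and 50 fragment ends, or 12.6, 12 and 23.8 ends per Mb, against 166 over all gained sequence. The first, 3.65 Mb on Chromosome 7 (chr7:7095524-10748476), held 30 genes, of which 23 were pheromone receptors of the *Vmn2r* family, and its longest gene was *Vmn2r48*. The second, 3.25 Mb on Chromosome 8 (chr8:19599422-22850564), held the alpha-defensin genes, which encode antimicrobial peptides of the gut, and had a stretch of 2380 kb without any fragment end. The third, 2.10 Mb on Chromosome 4 (chr4:144926189-147027866), held 19 genes, the zinc finger gene *Zfp600* among them, with *Gm13242* as its longest. On Chromosome 8, 17.9% of the gained sequence was unsequenced in the reference, against 1.43% of gained sequence over all autosomes. The part of it inside the second domain was not measured. Given the counts above, the calls of these 3 domains rest on few ends. The other 7 had between 94.9 and 197 ends per Mb, and 6 of them held 6 genes or fewer. The fourth, 2.09 Mb on Chromosome 3 (chr3:11301520-13390402), held 0 protein-coding genes. The fifth, 2.02 Mb on Chromosome 15 (chr15:17133862-19152854), held *Cdh10* alone, a cadherin of the brain, and was PAD over 5.43% in ESCs and throughout in thymus. Others had *Lrriq1*, *Zfp386*, *Gria4*, *Angpt1* and *Zfp946* as the longest gene. *Gria4*, an AMPA-type glutamate receptor subunit, lay in a domain of 1.67 Mb (chr9:4519212-6194136) that was PAD throughout in ESCs, ACs and thymus.

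Each protein-coding gene took the class at the middle of its longest transcript. Of the 21397 genes placed in this way, 8356 were lost and 981 were gained, so that 39.1% of genes were lost and 4.58% gained. NPC PADs held 14840 genes (69.4%) and AC PADs 7465 genes (34.9%). Of the genes in NPC PADs 56.3% were lost, more than the 39.3% of NPC PAD sequence, and of the genes in NPC non-PADs 15% were gained, less than the 26.2% of that sequence. The ratio of lost to gained genes was 8.52, against 3.39 for sequence. Among the lost genes, 5213 (62.4%) were non-PAD in both ESCs and thymus. Among the gained genes, 513 (52.3%) were PAD in both. Lost genes had a median length of 16.8 kb and gained genes of 10.9 kb, and 13.9% of the gained genes crossed a border between classes, against 4.60% of the lost ones. Of 181 genes of at least 500 kb, 27 were lost, 20 gained, 91 PAD in both and 43 non-PAD in both. Over all genes these shares were 39.1%, 4.58%, 30.3% and 26.1%, and the difference was not tested.

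**Figure D5:**
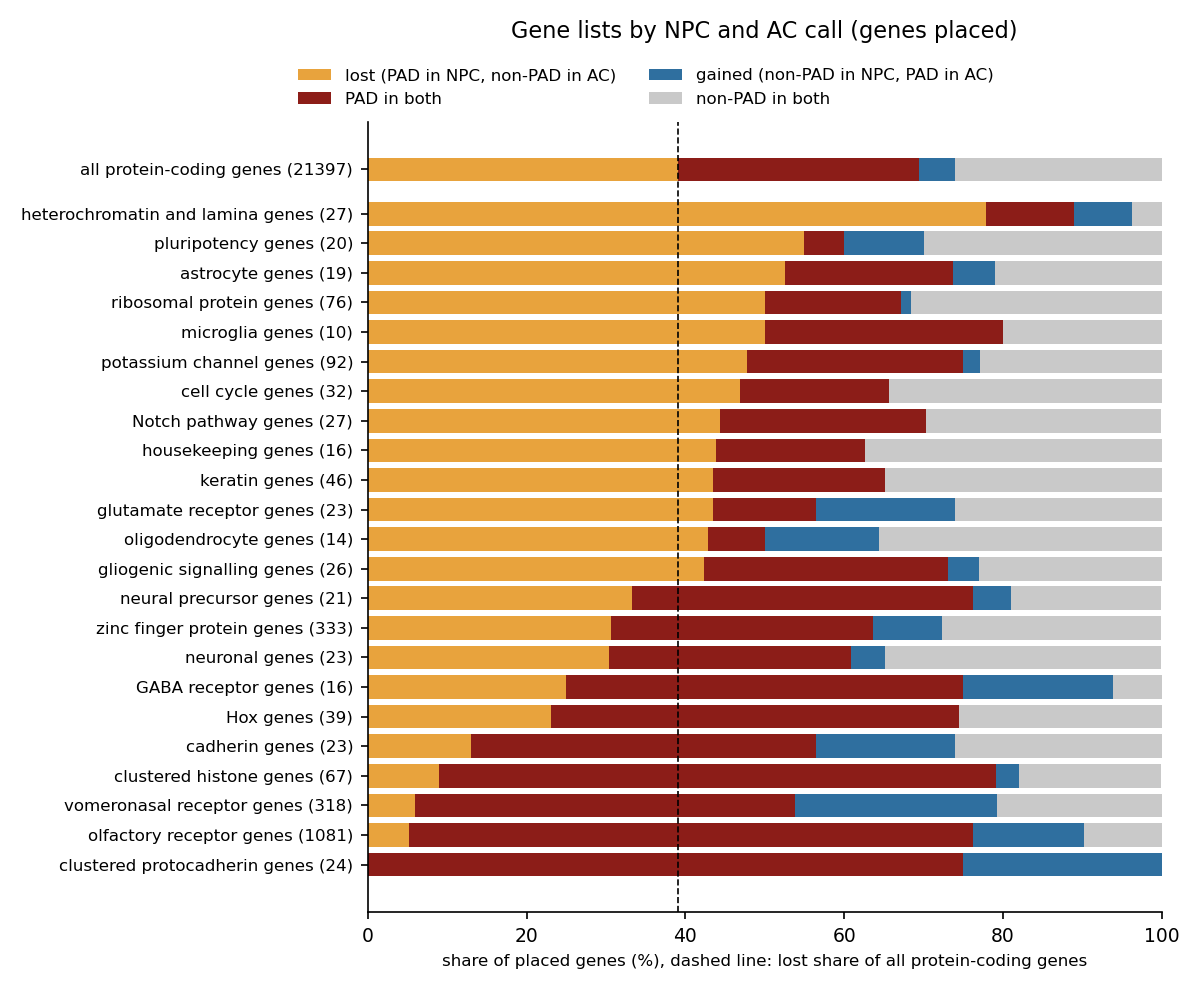
Share (%) of the placed genes of each list in the 4 classes, ordered by the lost share, with the number of genes in parentheses and all 21397 protein-coding genes at the top. The dashed line marks the lost share of all genes (39.1%), which the heterochromatin and lamina genes exceed most (77.8%) and which the olfactory receptor, vomeronasal receptor and clustered protocadherin genes lie furthest below.

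Of 19 placed astrocyte genes, 10 (52.6%) were lost, 1 was gained, 4 were PAD in both and 4 were non-PAD in both, against 39.1% and 4.58% of all genes. *Gfap*, the intermediate filament protein that marks astrocytes, lay 867 kb inside a lost domain of 1820 kb on Chromosome 11. *S100b*, a calcium-binding protein, lay 1858 kb inside a lost domain of 3933 kb on Chromosome 10. Both were PAD in NPCs alone among the 4 cell types. *Slc1a2*, the main astrocytic glutamate transporter, and *Clu* (clusterin) had the same calls, in domains of 1261 and 3384 kb. *Aldoc*, *Aldh1l1* (a folate enzyme), *Glul* (glutamine synthetase) and *Gjb6* (a gap junction protein) were lost too, but were PAD in ESCs as in NPCs. *Acsbg1*, an acyl-CoA synthetase, was non-PAD in ACs alone. *Aqp4*, the water channel of astrocyte endfeet, was lost in a domain of 31.0 kb with 3 ends, with its midpoint 0.324 kb from the border, and its start site was PAD in both. The gained gene was *Gja1*, the gap junction protein connexin 43 of astrocytes, in a domain of 364 kb with 51 ends that was PAD in ACs alone at the gene's midpoint. The remaining genes included the glutamate transporter *Slc1a3* and the transcription factor *Sox9*, PAD in both, and *Ndrg2* and *Sparcl1*, non-PAD in both.

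Of 21 placed neural precursor genes, 7 (33.3%) were lost, 1 was gained and 9 (42.9%) were PAD in both. Over all genes these shares were 39.1%, 4.58% and 30.3%, so the lost and gained counts lay near the background. *Nes*, the intermediate filament nestin of precursors, lay 13.0 kb inside a lost domain of 2510 kb. *Sox2*, a transcription factor of stem and precursor cells, lay 435 kb inside a lost domain of 903 kb. *Hes1* and *Hes5*, repressors that act downstream of Notch, were lost in domains of 722 and 3221 kb, and *Gas1*, a Hedgehog coreceptor, in a domain of 4143 kb. *Fabp7*, a fatty acid binding protein of radial glia, was lost in a domain of 339 kb and was PAD in thymus. *Emx2*, a transcription factor of the dorsal forebrain, was the gained gene, 24.4 kb from a border. *Pax6*, *Vim*, *Prom1* and *Tnc* were among those PAD in both, and *Olig1*, *Olig2* and *Msi1* among those non-PAD in both.

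Signals of the LIF and BMP families induce astrocytes from precursors. Of 26 genes of this gliogenic signalling, 11 (42.3%) were lost and 1 gained, which is near the 39.1% and 4.58% of all genes and no trait of this list. Among ligands and receptors, *Lif*, *Bmp2*, *Bmpr2*, *Cntfr* and *Il6st* (the shared receptor subunit gp130) were lost, and *Bmp4* was gained in a domain of 517 kb. Among their effectors, *Stat3*, *Smad5*, *Id1* and *Id4* were lost, as were the transcription factor genes *Nfia* and *Atf3*. *Cntfr* lay deepest, 1740 kb from a border of a domain of 3876 kb. *Bmp2* lay 11.4 kb from a border. Of the 11 lost genes, 7 were PAD in NPCs alone and 4 also in ESCs.

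The Notch pathway holds precursors in an undifferentiated state. Of its 27 genes, 12 (44.4%) were lost and 0 were gained, again near the 39.1% and 4.58% of all genes. The 4 receptor genes *Notch1*, *Notch2*, *Notch3* and *Notch4* were all lost, in domains of 5476, 1098, 428 and 1926 kb. The ligand genes differed, with *Jag2* and *Dll3* lost, *Jag1* and *Dll1* PAD in both and *Dll4* non-PAD in both. The cofactor gene *Maml1*, the protease subunit gene *Psen2*, the regulator gene *Numbl* and the target gene *Hey1* were lost as well. Of the 12 lost genes, 6 were PAD in NPCs alone and 6 in ESCs and NPCs.

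Lists of other cell types gave lost shares between 30.4% and 55.0%, on either side of the 39.1% of all genes, of which 4.58% were gained. Of 23 neuronal genes 7 (30.4%) were lost and 1 was gained, with *Rbfox3*, *Grin1*, *Gad1*, *Gria2*, *Camk2a*, *Syt1* and *Stmn2* lost and *Lrp1b* gained. *Syt1* and *Stmn2* lay across borders, and their start sites were PAD in both. Of 14 oligodendrocyte genes 6 (42.9%) were lost (*Cnp*, *Mag*, *Mobp*, *Bcas1*, *Enpp6* and *Gm98*, the older symbol of the myelin regulatory factor gene) and 2 gained (*Ermn* and *Ugt8a*). Of 10 microglia genes 5 were lost, *Aif1*, *Csf1r*, *Cx3cr1*, *P2ry12* and *Tmem119*. Of 20 pluripotency genes 11 (55.0%) were lost, among them *Pou5f1*, *Esrrb*, *Tdgf1* and the *Dppa* genes *Dppa2*, *Dppa3*, *Dppa4* and *Dppa5a*. The 2 gained genes were *Prdm14* and *Utf1*. *Nanog* was PAD in both, and 6 were non-PAD in both (*Klf2*, *Klf4*, *Lin28a*, *Sall4*, *Tbx3* and *Zfp42*). *Dppa2*, *Dppa3* and *Dppa4* were non-PAD in ACs alone, and *Dppa2* and *Dppa4* shared a lost domain of 133 kb with 10 ends. The difference between the lost shares of astrocyte genes and of these lists was not tested, and each list is small.

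Genes for chromatin and the nuclear lamina had the largest lost share of any list. Of 27 placed genes, 21 (77.8%) were lost and 2 (7.41%) gained, against 39.1% and 4.58% of all genes. Another 3 were PAD in both and 1 was non-PAD in both. The lost genes covered the heterochromatin protein 1 family (*Cbx1*, *Cbx3* and *Cbx5*), the histone methyltransferases *Suv39h2*, *Suv420h1*, *Suv420h2*, *Setdb1* and *Ehmt2*, and the DNA methylation genes *Dnmt1*, *Dnmt3b* and *Uhrf1*. They also covered the lamina genes *Lmna*, *Lmnb1*, *Lmnb2*, *Lbr*, *Tmpo* and *Banf1* and the centromere genes *Cenpa* and *Cenpb*, with *Daxx* and *Mbd2*. The gained genes were *Hells*, a chromatin remodeler, and *Cenpc1*, a centromere protein. Of the 21 lost genes 13 were PAD in NPCs alone. Members can share a lost domain, as *Daxx* and *Ehmt2* did, and are not independent. The difference from all genes was not tested. The call of a gene says where its DNA lay and nothing of its expression.

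Genes that most cells use had lost shares above the 39.1% of all genes, with the ribosomal protein genes highest among these lists. Their gained shares lay below the 4.58% of all genes. Neither difference was tested. Of 32 cell cycle genes 15 (46.9%) were lost and 0 gained, among them *Pcna*, *Mki67*, *Mcm2*, *Mcm6*, *Ccnd1*, *Ccnd2*, *Ccnb1*, *Ccne1*, *Cdk1*, *Cdk4*, *Cdk6*, *Aurkb*, *E2f1*, *Cdkn1a* and *Cdkn1c*. Of 76 ribosomal protein genes 38 were lost and 1 (*Rps9*) was gained, with *Rpl12*, *Rpl7a*, *Rpl14* and *Rpl23a* farthest from a border at 1578 to 2142 kb. Of 16 housekeeping genes 7 (43.8%) were lost, *Gapdh*, *Eef1a1*, *Eef2*, *Eif4a2*, *Atp5b*, *Gusb* and *Tfrc*, and 0 were gained.

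Chemosensory receptor genes, which sit in long clusters and are used mainly by sensory neurons, had small lost and large gained shares. Of 1081 olfactory receptor genes, 767 (71.0%) were PAD in both, 151 (14.0%) were gained and 56 (5.18%) were lost, and of 318 vomeronasal receptor genes 81 (25.5%) were gained and 19 (5.97%) lost. Together these families made up 232 of the 981 gained genes (23.6%) and 75 of the 8356 lost genes (0.898%). Among all other genes 749 of 19997 (3.75%) were gained and 8281 (41.4%) lost. Here the families count 1400 annotated entries, because 1 symbol has more than 1 entry and the counts per family take each symbol once. Members of a cluster share a domain and are not independent. A gained domain of 925 kb on Chromosome 17 (chr17:37169517-38094463) held 36 olfactory receptor genes. Another of 637 kb on Chromosome 7 (chr7:110345886-110983359) held 34. Of the 81 gained vomeronasal genes, 23 lay in the largest gained domain with its 46 ends. A lost domain of 3889 kb on Chromosome 6 (chr6:88109634-91999031) held 15 genes of the *Vmn1r* family together with *Aldh1l1* and *Mcm2*.

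Other gene families split by cluster. Clustered protocadherins give neurons their surface identity, and the list holds the 24 genes matched by name, which need not be the whole family. All 24 were PAD in ACs, 18 of them also in NPCs. Of all genes, 34.9% were PAD in ACs and 69.4% in NPCs, so the NPC count lay near the background. The 6 gained genes *Pcdhb2* to *Pcdhb7* lay in a single domain of 62.8 kb and are not independent. Of 39 *Hox* genes 9 were lost, all of them the *Hoxc* genes from *Hoxc13* to *Hoxc4*, in a domain of 2094 kb (chr15:101387364-103481818) that also held 14 keratin genes. None of the *Hox* genes was gained (0 genes), and 20 were PAD in both. Of 67 clustered histone genes 47 (70.1%) were PAD in both, 6 lost and 2 gained, and 5 of the lost ones lay in a domain of 57.9 kb with 6 ends. Of 333 zinc finger genes 102 (30.6%) were lost and 29 (8.71%) gained. Over all genes 39.1% were lost, 4.58% gained and 30.3% PAD in both. The lost share was thus below that of all genes for the clustered protocadherin (0%), *Hox* (23.1%), clustered histone (8.96%) and zinc finger genes. The gained shares of clustered protocadherin and zinc finger genes were above that of all genes, and those of *Hox* and clustered histone genes below it. These differences were not tested.

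Ion channel and receptor genes of neurons were found on both sides. Of 92 potassium channel genes 44 (47.8%) were lost and 2 gained, against 39.1% and 4.58% of all genes. The gained count was 1 by gene body and 0 by start site. Of 16 GABA receptor genes 4 were lost (*Gabrr1*, *Gabrr2*, *Gabrd* and *Gabrp*) and 3 gained. Of 23 glutamate receptor genes 10 (43.5%) were lost and 4 (17.4%) gained, and by start site 12 were lost and 2 gained. *Grin1* and *Grin3b* were among the lost genes, and the gained genes were *Gria4*, *Grik1*, *Grm3* and *Grm7*. Of 23 cadherin genes 3 were lost (*Cdh23*, *Cdh15* and *Cdh26*) and 4 gained (*Cdh10*, *Cdh19*, *Cdh9* and *Cdh2*). By start site the balance turned, with 6 cadherin genes lost and 3 gained. *Cdh2*, the N-cadherin of neural cells, lay 6.24 kb from a border in a gained domain of 63.9 kb, and its start site was PAD in both. The start sites of *Grm3* and *Grm7* were PAD in both as well.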

How the data were processed

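Sat4C ligates satellite repeats cut with ApoI to genomic fragments cut with MfeI, trims them with NlaIII and sequences the ligated fragment ends. The deposited table holds, for each fragment end of mm9 without the Y chromosome, the word PAD or nPAD per cell type. The authors sorted reads per end into classes, fitted a hidden semi-Markov model (mhsmm in R) to each replicate and took the majority call over replicates, settling ties with a replicate pooled from all reads. The build is named in the submitters' processing notes, and the sources used here do not name the aligner. The 4 columns of calls were used, and 0 columns hold single replicates. Labels assigned 2 replicates each to NPCs and ACs, so any disagreement between the replicates of either was a tie settled by pooled reads. ESCs had 3 replicates.

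From these calls, classes, domains and borders were computed with Python 3.11.15, numpy 2.4.6, pandas 2.3.3 and pysam 0.24.0, and the steps were tested on simulated calls. Sequence came from the NCBIM37 genome (mm9), on which 49.9% of autosomal ends began at an MfeI and 47.9% at an NlaIII site. Genes were GENCODE vM1, and 21 of 21418 autosomal protein-coding genes lay outside the called sequence. *Sox1* was not found under this name, *Mtap2*, *Gm98* and *Tcfcp2l1* are older symbols, and genes on Chromosome X were left out. Named genes are the gained or lost members of the symbol lists, the longest genes of the 10 largest domains, and the members of family lists farthest from a border. Members in no changed class, genes at printed borders, and the counts of genes per shared domain were named after their values were seen. The members and lists were chosen with earlier results of these data known. Some members of the lists are counted but not reported by name here.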

Additional observations from a re-analysis of the deposited data

How the results depend on the processing

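The excess of lost over gained sequence, domains and genes held under all alternatives that were run. Counting fragment ends instead of bp gave 24.8% lost, 8.59% gained, 45.6% PAD in both and 21.1% non-PAD in both. Leaving out gaps over 100 kb gave 27.5%, 7.89%, 42.2% and 22.4%, and including Chromosome X gave 26.5%, 8.96%, 41.5% and 23.0%. With each autosome left out in turn, the lost share ranged from 26.5% to 28.0%, the gained share from 7.63% to 8.28%, the share of PAD in both from 41.4% to 42.7% and of non-PAD in both from 22.0% to 23.3%. Moving the NPC calls to the best match with ESCs changed nothing, as the best offset was 0.

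Median domain sizes were 320 kb (lost) and 161 kb (gained) with runs under 5 ends absorbed, 300 and 154 kb without domains of 1 end, and 277 and 143 kb from the first to the last end. With short runs absorbed, the median distance from NPC to AC borders was 461 kb. With all gene types, 12713 genes (36.7%) were lost and 1974 (5.70%) gained. Medians over autosomes were 11.9 genes per Mb in lost sequence, and 4.01 genes per Mb and 27.5% gene body in gained sequence. By fragment ends, 33.8% of lost and 62.3% of gained ends were PAD in ESCs, and 15.4% of lost ends in thymus. Placing genes by start site moved 3 of 46 list counts by over 1.5 times (cadherin genes lost, glutamate receptor and potassium channel genes gained), and by gene body 1 of 46 (potassium channel genes gained).

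No paired analysis was possible because each cell type has 1 consensus column, and for the same reason leaving out a replicate was not run.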

Other observations

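Chromosome X, which was kept out of the autosomal values, had more gained than lost sequence. Of its called sequence 22.7% (37.2 Mb, 75 domains) was gained and 15% (24.5 Mb, 65 domains) was lost, while 33.7% was PAD in both and 28.5% non-PAD in both. PAD coverage of Chromosome X was 48.7% in NPCs, 56.5% in ACs and 47.9% in ESCs, so the NPC value lay near that of ESCs there, unlike on the autosomes (69.3% and 52.8%). The difference between Chromosome X and the autosomes was not tested.

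The calls were used as deposited. NPC coverage and the gene and GC content of NPC PADs stood apart from those of ACs, ESCs and thymus, and with 1 column per cell type a property of the cells and one of the libraries or the calling cannot be told apart. Nor is it settled that this column is the set of NPC calls the study used, since the study's account of NPC coverage does not match it. Each lost or gained region rests on that column, and depth, replicate spread and batches could not be examined.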
